A study of Sus scrofa with 3 samples.

Results

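The right, non-operated lung of a minipig whose left pulmonary artery had been closed and reopened was compared with the lung of a sham minipig. A gene was counted when its probe set carried 1 gene symbol and its signal lay above a floor on the sham array, the non-operated array or both. That rule took 5113 of the 6765 named genes, and 6405 of the 10069 probe sets with 1 gene symbol. The comparison between the non-operated and the operated lung, counted the same way, held 4944 genes.

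All animals were minipigs, a small breed of pig used for surgery, kept free of specific pathogens. The procedure was a transient occlusion of the left pulmonary artery that spared the bronchus, so the left lung was still ventilated while its arterial flow was stopped. The operated lung was the left one and the non-operated lung the right one of a minipig with that procedure, and the sham tissue came from a minipig with a sham operation. Each group was 1 array of total RNA from whole lung tissue. Age, sex, the length of the occlusion and of the reperfusion, drugs given at surgery, the side of the sham lung, whether both lungs came from the same animal and whether RNA was pooled were not given in the sources used here. The animal and the procedure therefore cannot be told apart in any difference from sham.

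As background, closing a pulmonary artery sends the whole output of the right heart through the other lung, so the contralateral lung meets more flow and more stretch of its vessels while it is not itself starved of blood. After reopening, both lungs share the same circulating hormones, cytokines, platelets and leukocytes. Surgery and its stress response raise cortisol, which acts on most cells of the lung through the glucocorticoid receptor. The lung is made of thin alveolar type 1 cells, surfactant-making alveolar type 2 cells, a dense capillary endothelium, smooth muscle, resident macrophages and, along the airways, scattered lymphoid tissue.

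Signals are linear MAS5 units, and for each gene they are given in the order sham, non-operated lung and operated lung. The floor was the median signal of each array, 160.7 on sham, 158.6 on the non-operated and 158.7 on the operated array. Ratios are the non-operated minus the sham value on the log2 scale, where 1 is 2-fold. Values under the floor were raised to it, so a ratio with 1 such value is a lower bound, written as at least that fold. With 1 array a group there is no replicate check and no p-value, and a 2-fold difference describes these arrays.

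In the non-operated lung, 458 genes (8.96%) were at least 2-fold higher than in sham and 437 (8.55%) at least 2-fold lower, together 17.5% of the 5113 counted. These shares over all genes, 8.96% higher and 8.55% lower, are the ones to read each list count below against. At 4-fold, 82 genes (1.6%) were higher and 71 (1.39%) lower. The median ratio over all counted genes was -0.10, with quartiles at -0.51 and 0.36, and 56.6% of genes lay below 0. Of the 458 higher genes 76 rested on a lower bound, as did 71 of the 437 lower ones, and where both arrays exceeded the floor 16.4% were beyond 2-fold. Counted by probe set the share was 17.6%. The operated lung had 17.4% of its 5097 counted genes beyond 2-fold of the same sham array.

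Both lungs of the procedure lay close together. Of 4944 genes, 12 (0.243%) were at least 2-fold apart between them, 9 (0.182%) higher in the non-operated lung and 3 (0.0607%) higher in the operated lung. The median ratio of non-operated to operated lung was 0.016, with quartiles at -0.13 and 0.17. Probe sets of the same gene, read on the same arrays, gave the only measure of error. Their ratios of non-operated lung to sham had a pooled SD of 0.41 over 783 genes. Of 193 genes beyond 2-fold with several counted probe sets, in 186 (96.4%) all pointed the same way. In 90 of the 193 all were beyond 2-fold the same way. The probe set by which a gene was called is among those compared. The spread between probe sets says nothing of animals or RNA preparations.

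**Figure D1:**
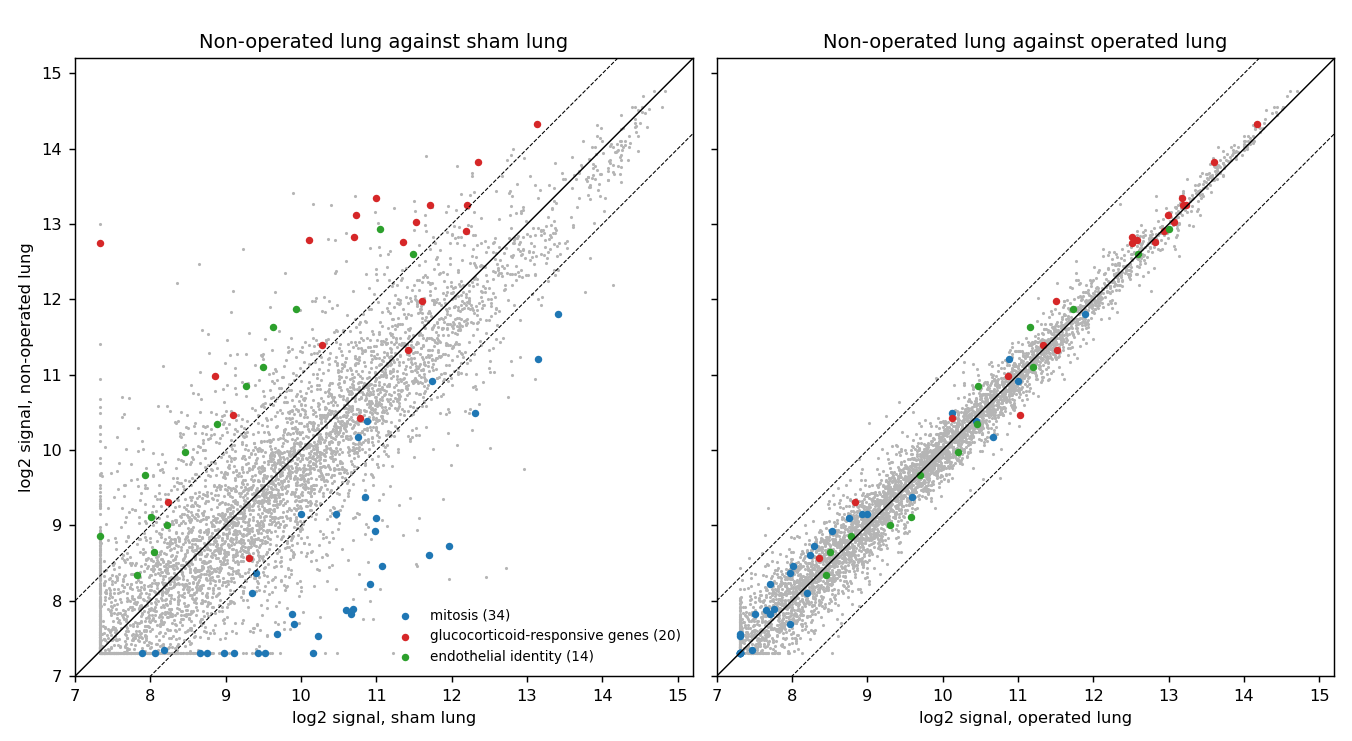
Each point is a gene, with its log2 signal in the non-operated lung on the vertical axis against sham (left) and against the operated lung (right); the solid line marks equal signals, the dashed lines 2-fold, and colours mark 34 mitosis, 20 glucocorticoid-responsive and 14 endothelial genes. The cloud is wide against sham, with 895 genes beyond 2-fold, and narrow between the lungs, with 12 beyond it.

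Surfactant genes marked the tissue as lung on all arrays. SFTPC, the surfactant protein made in the lung by alveolar type 2 cells, had signals of 22178, 24072 and 23424. SFTPA1, another surfactant protein, had 4483, 4021 and 4795, and AGER, the receptor that marks alveolar type 1 cells, had 32.2, 309 and 281. The SFTPC and SFTPA1 signals were high and close on the 3 arrays, while AGER was dim and at the floor in sham. Another surfactant gene, SFTPB, was not close on the 3 arrays and read 739, 795 and 1734. EIF1AY, a Y-linked translation factor gene, read 1.61, 1646 and 1893, and its X-linked partner EIF1AX read 2093, 1911 and 2061. EIF1AY was thus near 0 in sham alone, and the animals' sex, which the labels leave out, cannot be told apart from the procedure.

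Glucocorticoid-responsive genes, a list that also holds the receptor gene NR3C1, were mostly higher in the non-operated lung. Of 24 named members 20 were counted, of which 15 were 2-fold or more above sham and 0 below. Their median ratio was 1.38, beside -0.10 for all genes, of which 8.96% were 2-fold or more above sham. Like the others, this list was chosen with earlier results of these data known, so the contrast with all genes is a description. Several lists share members, such as PER1, which is also among the clock genes. PDK4, a kinase that turns off pyruvate dehydrogenase and spares glucose, read 137, 6908 and 5835, at least 43.0-fold higher, and its probe sets ranged from 3.97 to 5.43. It was below the floor in sham and bright in both lungs.

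FKBP5, a co-chaperone of the glucocorticoid receptor and a standard readout of its activity, read 2040.5, 10385 and 9269, a ratio of 2.35. TSC22D3, the anti-inflammatory leucine zipper protein GILZ, read 3363, 9773 and 9577, a ratio of 1.54. KLF9, a transcription factor induced by the receptor, read 1101, 7051 and 6104 (2.68). For these 3 genes both lungs stood well above sham and close to each other. CEBPD, a transcription factor of the acute response, was at 2.40, the cell cycle inhibitor CDKN1A at 2.13, the ammonia-fixing enzyme GLUL at 1.47, the salt-retaining kinase SGK1 at 1.40 and the metallothionein MT-2B at 1.36. The receptor itself was on the other side: NR3C1 read 633, 378 and 327, a ratio of -0.74, though its probe sets lay on both sides of 0, and it is named after its values were seen. HSD11B1, which regenerates cortisol inside cells, was at -0.085.

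Of 6 counted clock genes 4 were 2-fold or more above sham and 0 below. PER1, a repressor of the clock that glucocorticoids also induce, read 1664, 7299.7 and 5849 (2.13), and NFIL3, a repressor of clock output, read 596, 1914 and 1505 (1.68). CRY2, a partner of PER proteins, was at 1.19. ARNTL, the activator that drives PER and CRY genes, was at 0.37. DBP, whose expression ARNTL also drives, read 270.1, 102 and 199.9, below the floor in the non-operated lung. The hour of sampling was not among the labels.

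Immediate early genes, which are switched on within minutes by stretch, growth factors or injury, were higher in most cases. Of 25 counted, 14 were 2-fold or more above sham and 0 below, and the median ratio was 1.04. CYR61, a matrix signalling protein induced by stretch, read 1549, 7552 and 7512 (2.29). EGR1, a zinc finger factor, read 2029.8, 9164 and 8185 (2.17), and ATF3, a stress repressor, read 709, 2454 and 2443 (1.79). In all 3 the sham value was the lowest of the arrays.

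PTGS2, the inducible cyclooxygenase, read 142, 1188 and 966 and was at least 7.40-fold higher, with sham below the floor. The orphan nuclear receptor NR4A3 was at 2.10, JUN at 1.80 and GADD45B, which couples stress to kinase signalling, at 1.61. FOS, the partner of JUN, read 3346, 6517 and 4466, a ratio of 0.96 that stays within 2-fold. MYC, which drives growth, was at 0.13, so the members that were higher did not include it.

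Endothelial genes were higher than in sham as a list. Of 19 named members 14 were counted, 11 were 2-fold or more above sham and 0 below, and the median ratio was 1.52. CDH5, the cadherin that holds endothelial cells together, read 974, 3739.6 and 3388, and PECAM1, an adhesion molecule at the same junctions, read 2878, 6249.7 and 6173 (1.12). VWF, the clotting protein stored by endothelium, read 615, 1842 and 1421 (1.58). In each the sham array was the lowest and the lungs lay within 2-fold of each other. EPAS1, the hypoxia-inducible factor of endothelium, was at 1.61, TEK, the angiopoietin receptor, at 1.51, and ERG, a transcription factor of endothelial identity, at 1.10. The tight junction gene CLDN5 was at 0.80 and EGFL7 at 0.61, both within 2-fold. In whole tissue, more cells of a type and more RNA per cell cannot be told apart, nor can fewer cells and less RNA, here or for any cell type below.

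Genes that endothelium raises or lowers under laminar flow, as background the setting of a lung that takes extra flow, were read as a single list, so its count and median mix both kinds. Of 10 counted, 5 were 2-fold or more above sham and 0 below, and the median ratio was 0.87, which moved to 1.55 with a floor at the 75th percentile of each array. THBD, the thrombin-binding anticoagulant thrombomodulin, read 882, 5247 and 3480.0 (2.57). KLF4, a factor induced by flow, read 1546, 5858 and 3490.3 (1.92), and AQP1, the water channel of capillaries, read 2111, 6191 and 4665 (1.55). All 3 were higher in both lungs than in sham. NOS3, the endothelial nitric oxide synthase and the best known flow target, was dim at 137, 194 and 109.6, and EDN1, the vasoconstrictor that flow lowers, read 57.4, 236 and 269. ANGPT2, which flow also lowers, was at -0.86.

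Arterial and capillary markers had a median ratio of 1.36, and 5 of 8 counted members were above sham by 2-fold or more against 0 below. With a floor at the 75th percentile the median was 0.39, and with one at the 25th it was 0.94. GJA4, a gap junction protein of arteries, read 214, 775 and 581 (1.86), GJA5, its arterial relative, 392, 1008 and 1289 (1.36), and the Notch receptor NOTCH4 263, 817 and 616 (1.63). Each was low in sham and higher in both lungs. EFNB2, the ligand that marks arteries, read 134, 611 and 467, while NR2F2, the factor of venous identity, was at 0.16. Among the 4 counted lymphatic genes, LYVE1 was at 1.79 and PDPN, which alveolar type 1 cells also make, at 1.10.

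Of the BMP and TGF-beta genes, 3 of 14 were 2-fold or more above sham, against 8.96% of all genes. None of them was that far below, and the median ratio was 0.53. TMEM100, a membrane protein that endothelium makes in response to BMP9 signalling, read 1143, 9816 and 5219 (3.10). ID1, the classic BMP target, read 1169, 4134 and 2459 (1.82), and FST, a secreted inhibitor of activin, read 237, 1109.8 and 1206 (2.23; probe sets from 0.068 to 2.23). These 3 were higher in both lungs, but the ligands and signal carriers stayed within 2-fold: BMP4 was at -0.035, TGFB1 at -0.49 and SMAD1 at 0.33.

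Wnt, Notch and Hippo genes had a median ratio of 1.08, and 10 of 17 counted members were above sham by 2-fold or more against 0 below. The receptor FZD4, which endothelium needs to form vessels, read 1310.4, 7119 and 6853 (2.44), and JAG1, a Notch ligand, read 836, 3076 and 3508 (1.88; probe sets from 0.46 to 1.88). The Notch target HES1 read 790.4, 1676 and 1650.3 (1.08). The sham array was the lowest for each. LATS2, the Hippo kinase that restrains YAP, was at 1.12 (probe sets from 0.39 to 1.12), while the signal carrier CTNNB1 was at 0.17.

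**Figure D2:**
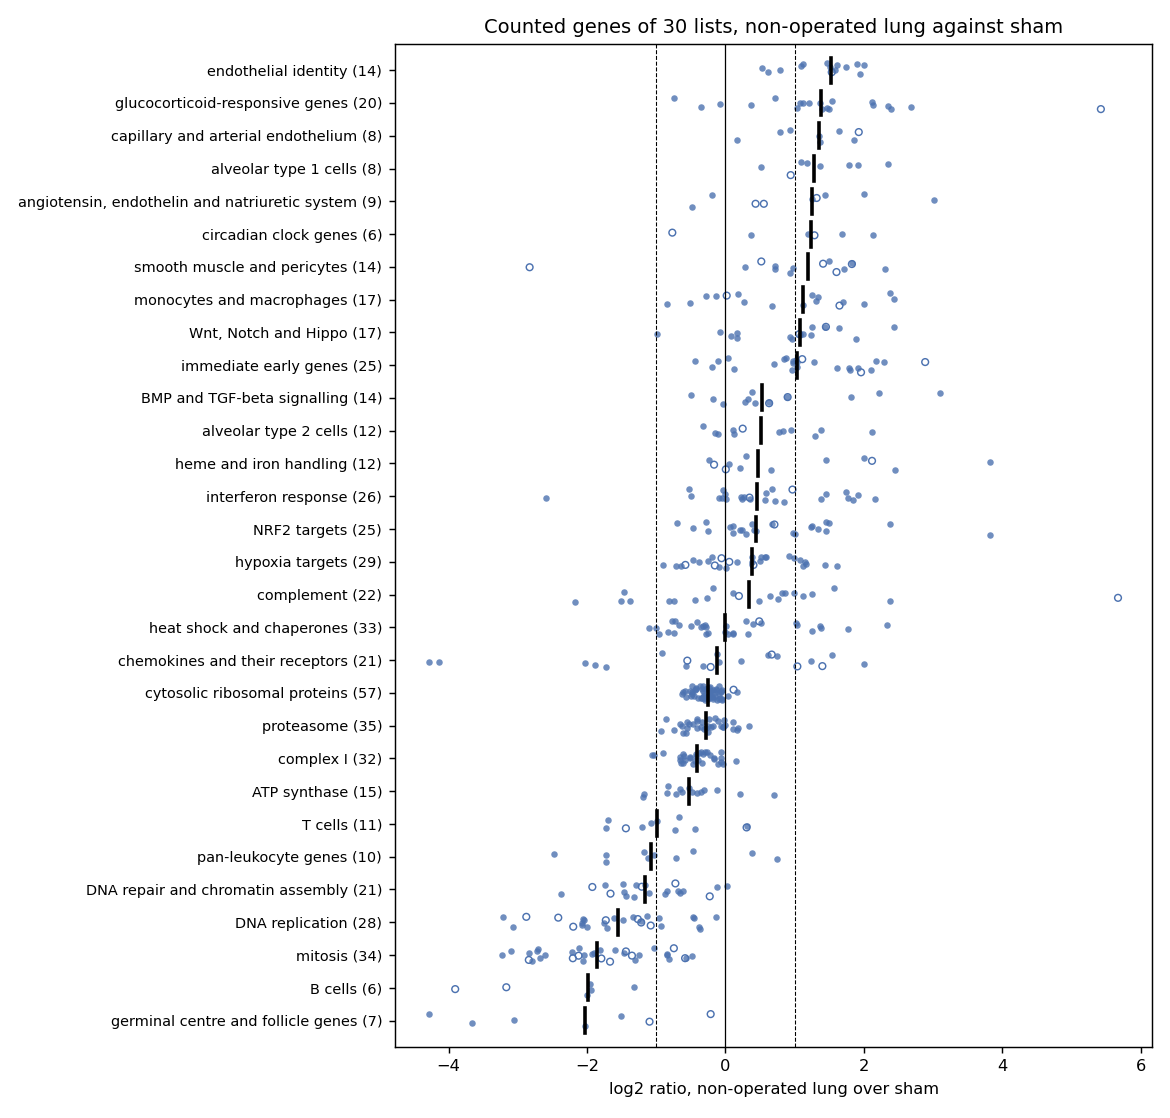
Each row is a gene list with its number of counted members, and the horizontal axis is the log2 ratio of the non-operated lung to sham, with filled points for members above the floor on both arrays, open points for lower bounds and a bar for the median. Endothelial (1.52) and glucocorticoid-responsive (1.38) lists lie to the right of the median of all genes (-0.10), and mitosis (-1.85) and follicle (-2.04) lists to the left.

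Genes of vessel tone were also higher in part. AGTR1, the receptor through which angiotensin II constricts vessels, read 548, 4442 and 4847, a ratio of 3.02. AGT, the precursor of angiotensin, read 2062, 4919 and 3551 (1.25), and ADM, the vasodilator adrenomedullin, read 396, 1068 and 644 (1.43). RAMP2, which turns the calcitonin-like receptor into an adrenomedullin receptor, read 791, 3169 and 2277 (2.003). The sham value was the lowest for all 4, and of 9 counted genes of this list 5 were 2-fold or more above sham and 0 below. ACE, the converting enzyme of lung capillaries, was dim at 108, 217 and 142. The list's median was 1.25, beside 0.70 in the operated lung, and both share the sham array.

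Smooth muscle genes had a median ratio of 1.19, and 7 of 14 counted members were above sham by 2-fold or more against 1 below. ACTG2, a smooth muscle actin, read 767, 3805 and 4455 (2.31; probe sets from 0.31 to 2.31), TAGLN, which binds actin, 719.9, 2361 and 2296 (1.71), and ACTA2, the actin of vascular smooth muscle, 7929, 15119 and 12347 (0.93). Sham was the lowest in these genes. RGS5, a marker of pericytes, read 1128, 149 and 107 and was at least 7.11-fold lower, with both lungs below the floor. PDGFRB, the receptor of pericytes and fibroblasts, was at 0.28.

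In the heme and iron list 5 of 12 counted genes were 2-fold or more above sham and 0 below, and the median ratio was 0.47. HMOX1, the inducible enzyme that breaks heme down, read 401, 5681 and 5015, a ratio of 3.83, the highest of the named genes above the floor on both arrays. CD163, the macrophage receptor for hemoglobin bound to haptoglobin, read 2069.5, 8257 and 8316 (1.996), and HP, haptoglobin itself, read 2324, 6396 and 5641 (1.46). All 3 were higher in both lungs. TF, the iron carrier transferrin, was at 2.45 (probe sets from 0.43 to 2.45), and SLC11A1, the iron pump of phagosomes, was at least 4.34-fold higher. The ferritin chains FTH1 and FTL were at 0.21 and 0.29, and the constitutive heme oxygenase HMOX2 at 0.65. The hemoglobin chain HBB read 758, 902 and 1228 (0.25), within 2-fold.

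NRF2, the factor that answers oxidants, had 9 of 25 counted targets 2-fold or more above sham and 0 below, and the median ratio was 0.45. NQO1, a quinone reductase, read 297, 1543 and 1551 (2.38), GCLC, which makes the first step to glutathione, 502, 1417 and 1781 (1.497; probe sets from 0.15 to 1.497), and SQSTM1, the autophagy receptor p62, 2271, 6247 and 6411 (1.46). Both lungs were above sham for each. TXNRD1 was at 1.007 and PRDX6, a lung peroxiredoxin, at 1.23, while GCLM, the other subunit of the glutathione enzyme, was at 0.07 and GSR, glutathione reductase, at -0.25. SOD1, the cytosolic superoxide dismutase, was at -0.70.

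Hypoxia targets were read as a single list that also holds the hypoxia-inducible factors EPAS1 and HIF1A, so its count and median mix both kinds. Of 29 counted, 6 were 2-fold or more above sham, against 8.96% of all genes, and 0 below. The median ratio was 0.39, beside 0.030 in the operated lung, and both share the sham array. The members that were higher included EPAS1, ADM, ANGPTL4, an inhibitor of lipoprotein lipase, at 1.08, and LOX, which cross-links collagen, at 1.16. The glycolytic members LDHA, ENO1 and PGK1, named after their values were seen, were within 2-fold: LDHA was at -0.65, ENO1 at -0.72 and PGK1 at -0.47. VEGFA read 2104, 2991 and 3274 (0.51) and HIF1A itself 7269.7, 3881 and 4023 (-0.91), both within 2-fold.

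Markers of monocytes and macrophages, read as a single list, were mostly higher. Of 22 named markers 17 were counted, 9 were 2-fold or more above sham and 0 below, and the median ratio was 1.12. MRC1, the mannose receptor, read 803, 4369 and 4645 (2.44), and VSIG4, a complement receptor of tissue macrophages, read 405, 2107 and 2391 (2.38). TYROBP, a signalling adaptor of myeloid cells, read 1141, 2884 and 2853 (1.34). The sham value was the lowest in each. C1QA and C1QC, chains of complement C1q made by macrophages, were at 1.12 and 1.25. MARCO, a scavenger receptor of alveolar macrophages, was dim at 59.0, 163 and 148, and APOE was at -0.13.

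Of the neutrophil list 6 of 10 genes were counted, and the 3 that were at least 2-fold higher were the calgranulins. S100A9 read 598, 6517 and 5335 (3.45), its partner S100A8 178, 826 and 484 (2.21) and S100A12 275, 899 and 906 (1.71). Both lungs were above sham for all 3, which monocytes also make. The granule protein gene BPI read 239, 59.5 and 45.3 and CHI3L1, a chitinase-like protein of neutrophils and macrophages, 3566, 1991 and 961 (-0.84). Whether neutrophils contributed to the calgranulin signals was not tested. Of 5 counted platelet genes 2 were at least 2-fold higher and 1 was lower. PPBP, a chemokine stored in platelets, read 69.3, 2712 and 2328, at least 16.9-fold higher. CD9, which is also in the monocyte and macrophage list, was at 1.70. The platelet integrin ITGB3 was at -0.66, and P2RY12 read 434, 121 and 185 and was at least 2.74-fold lower. Mast cells had 2 counted genes, with MS4A2, a chain of the IgE receptor, at 1.80 and GATA2 at 1.77 (probe sets from 0.30 to 1.77). With a floor at the 75th percentile MS4A2 was at -0.017, as its sham signal of 173 was raised to that floor.

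Complement genes went both ways, 5 of 22 being above sham by 2-fold or more and 4 below, and the median ratio was 0.34. FCN2, a ficolin that starts the lectin pathway, read 108, 8202 and 8983, at least 51.1-fold higher. CFP, properdin, which stabilises the alternative pathway, read 243, 719.8 and 719 (1.57). CR1, a receptor for complement fragments that B cells and follicular dendritic cells carry, read 8845, 1965 and 2447 (-2.17). FCN2 was thus below the floor in sham alone and CR1 was highest in sham. The early component C4A was at -1.46, the terminal component C7 at -1.37 (probe sets from -1.37 to -0.70), the central component C3 at -0.18 and the regulator CD55 at -0.82.

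Chemokines and their receptors had 5 of 21 members above sham by 2-fold or more, 5 below and a median ratio of -0.12. CCL4, which draws monocytes and T cells, read 409, 1636 and 1655 (1.999), and CCL24, an eosinophil chemokine, 249, 721 and 389 (1.53). CXCL14, made by epithelium and stroma, read 5625, 319 and 335 (-4.14), CXCL12, which holds leukocytes in tissue, 1655, 446 and 399 (-1.89), and CCL2, the monocyte chemokine, 3950.3, 1197 and 999 (-1.72). The latter 3 were highest in sham and similar in both lungs. CXCL8, the neutrophil chemokine, was at -0.91, within 2-fold. Among TNF family genes TNFSF13, a B-cell survival factor made by myeloid cells, was at 2.15, TNF at -0.25 and the NF-kB inhibitor NFKBIA at 0.72.

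Interleukin genes had 0 of 13 counted members 2-fold or more above sham and 3 below, and the median ratio was -0.19. IL18, the inflammasome cytokine, read 2799.5, 662 and 737 (-2.08), and IL16, a chemoattractant of CD4 cells, 1866, 518 and 409 (-1.85). IL1B read 332, 299.7 and 275 (-0.15) and IL6, which was at the floor in sham, 56.1, 189 and 59.3. The signals of IL18 and IL16 were highest in sham, and those of IL1B were within 2-fold. TLR4, the receptor for endotoxin, was at 1.20 (probe sets from 0.39 to 1.20) and TLR2 at 1.39, TLR6, which pairs with TLR2, read 391, 158 and 13 and was at least 2.47-fold lower, and CASP1, which matures IL1B and IL18, was at -0.0028. The Toll-like receptor and inflammasome list had a median of 0.97, which came to 0.083 with a floor at the 75th percentile and 0.11 with one at the 25th.

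Of 26 counted interferon response genes 7 were 2-fold or more above sham and 1 below, and the median ratio was 0.46. OAS1, which senses double-stranded RNA, read 188, 842 and 926 (2.16), IFIT3 403, 1449 and 1598 (1.85) and ISG15, a ubiquitin-like modifier, 380.1, 1038 and 979 (1.45). Both lungs were above sham for these, but GBP1 was at 0.013, IRF9 at -0.0095 and MX1 at 0.68, within 2-fold. PLAC8, which leukocytes express, was at -2.60. Class I and class II MHC genes stayed near the median of all genes, with medians of 0.12 and -0.29. The exception in class I was SLA-3, a classical heavy chain, at 437, 2979 and 2786 (2.77), and its near relative SLA-2 was at 0.27; heavy chain genes differ between animals and are alike in sequence, so their probe sets may not tell them apart.

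Alveolar type 1 genes had a median ratio of 1.28, and 6 of 8 counted members were above sham by 2-fold or more against 0 below. HOPX, a transcriptional cofactor of these cells, read 1394, 7070.4 and 7351 (2.34), AQP5, their water channel, 173, 447 and 359 (1.37), and CAV1, of the caveolae that endothelium also has, 7184, 16326 and 16896 (1.18). All were lowest in sham. Alveolar type 2 genes had a median ratio of 0.51, and 3 of 12 counted members were above sham by 2-fold or more against 0 below. Among all genes 8.96% were that far above sham. LPL, which frees fatty acids from lipoproteins, was at 2.11 (probe sets from 0.095 to 2.11) and ETV5, a factor of type 2 identity, at 1.30 (probe sets from 0.50 to 1.30), while SFTPC was at 0.12, SFTPD at 0.77 and SFTPA1 at -0.16.

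Airway genes had 3 of 9 members above sham by 2-fold or more, against 8.96% of all genes, namely DUOX2, VSIG2 and FOXA2. DUOX2, which makes hydrogen peroxide at the airway surface, read 161, 1526 and 1995 (3.25), its sham value being close to the floor. VSIG2 was at 3.09 with probe sets from 1.18 to 3.09, and FOXA2, a transcription factor of airway epithelium, at 1.16. SLPI, an inhibitor of neutrophil elastase secreted in airways, is not in that list and read 1347, 9766 and 8948 (2.86). DUOX2 and SLPI were lowest in sham, and the lungs were within 2-fold of each other. The ciliated cell genes TPPP3 and ROPN1L were at 0.32 and 0.46, and of the secretory list PIGR, which carries IgA across epithelium, was at -0.23.

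Basement membrane and elastic fibre genes had a median ratio of 0.76, and 4 of 10 were above sham by 2-fold or more, among them COL4A2 at 1.60 and LAMB1 at 1.48 (probe sets from 0.19 to 1.48). Fibrillar collagen genes had a median of 0.18, with COL3A1 at -0.36. ADAMTS1, a protease of proteoglycans, read 1679, 10569 and 7295 (2.65), and TIMP3, a metalloproteinase inhibitor bound to matrix, 188, 1155 and 1007 (2.62; probe sets from 0.46 to 2.62). Both were lowest in sham. The gelatinase MMP2 was at 0.42 and fibronectin, FN1, at 0.30.

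Genes of lymphoid tissue were lower in the non-operated lung than in sham. Of 7 counted follicle genes 6 were lower by 2-fold or more, against 8.55% of all genes, and 0 were higher. Their median was -2.04, and all 6 counted B-cell genes were lower by 2-fold or more, their median being -1.98. CXCL13, the chemokine that builds B-cell follicles, read 6725, 346 and 224 (-4.28), LTB, a cytokine that organises lymphoid tissue, 3988, 314 and 304 (-3.67), and CCL19, which gathers T cells and dendritic cells, 2527, 617 and 733 (-2.04). Each was bright in sham and low in both lungs. EAF2, an elongation factor partner of germinal centre B cells, read 3255, 390.1 and 519.8 (-3.06). CD79B, the signalling chain of the B-cell receptor, read 2378, 73.1 and 86.6, and the sham value was at least 14.99-fold above the floor of the non-operated array. Plasma cell genes were nearer to sham, 1 of 4 being lower by 2-fold or more: JCHAIN, the joining chain of secreted antibodies, was at -0.49 and TNFRSF17, a plasma cell receptor, at -1.27.

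Of 11 counted T-cell genes 5 were lower by 2-fold or more, 0 were higher and the median was -0.99. LCK, the kinase of the T-cell receptor, read 1239, 383 and 325 (-1.70), CD3E, a chain of that receptor, 337, 211 and 199 (-0.68), and CD8A 1738, 1049.8 and 1002 (-0.73). The sham array was highest, but CD3E and CD8A stayed within 2-fold. Genes of killer cells did not go that way: of 4 counted, 1 was at least 2-fold higher and 0 lower. GNLY read 130, 485 and 335 and was at least 3.02-fold higher, with sham below the floor. GZMH, a granzyme, was at 0.11, KLRK1, an activating receptor, at -0.049 and CCL5 at 0.23. Of the 10 genes shared by most leukocytes 6 were at least 2-fold lower, among them PTPRC, which encodes CD45, at 1017, 307 and 435 (-1.73) and CORO1A, an actin regulator, at 5845, 1048 and 825 (-2.48; probe sets from -3.43 to -0.76). Of these 10 genes 2 lay above 0, and ITGB2, an integrin chain of leukocytes, was the highest at 0.75. Of 5 counted dendritic cell genes 3 were at least 2-fold lower, among them IRF8, their lineage factor, at -1.44 and the costimulator CD86 at -1.32.

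**Figure D3:**
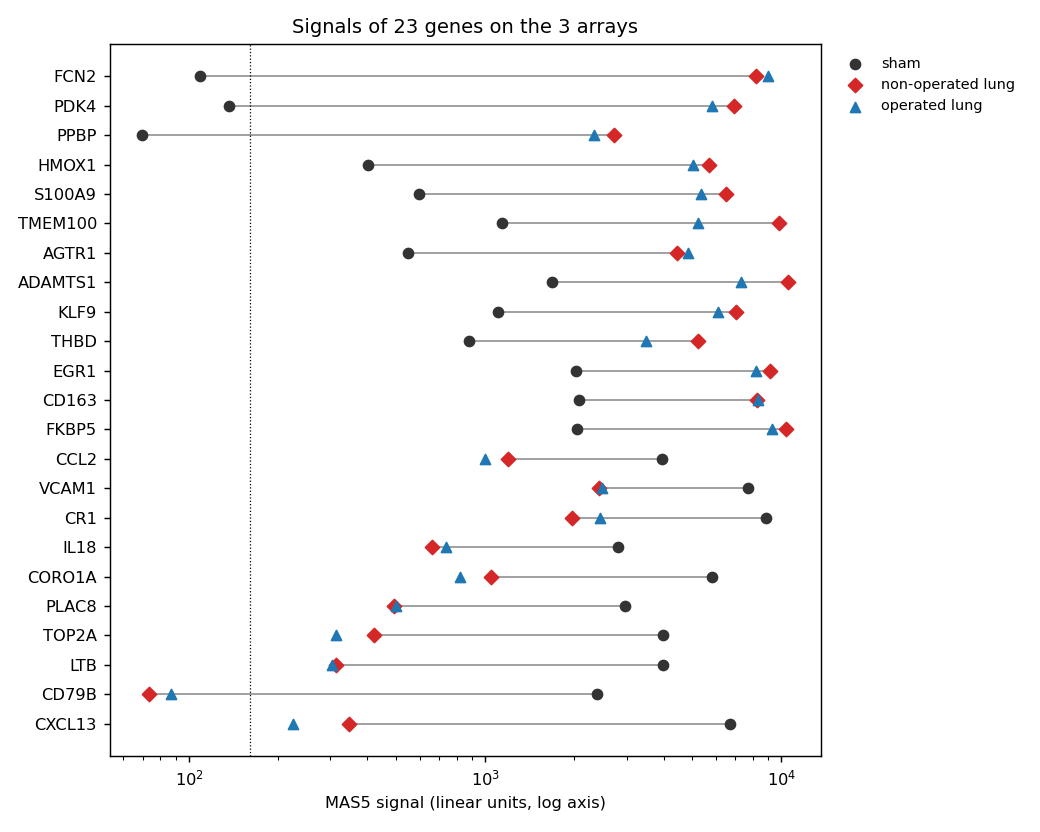
MAS5 signals of selected genes on a log axis, with 1 mark per array (sham, non-operated lung, operated lung) and no error bars since each group is 1 array; the line joins sham to the non-operated lung and the dotted line is the sham floor, with values below it drawn as measured. For CXCL13 and CD79B the sham mark stands apart above both lungs, and for HMOX1 and PDK4 it stands apart below them.

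Of all lists read, mitosis held the most genes at least 2-fold below sham. Of 38 named mitosis genes 34 were counted, and of these 27 were lower by 2-fold or more, 0 were higher and the median was -1.85, and of 28 counted replication genes, out of 33 named, 21 were lower and 0 higher, their median being -1.55. All 34 and all 28 lay below 0. With a floor at the 75th percentile the medians were -1.24 and -0.95. TOP2A, the topoisomerase that separates sister chromosomes, read 3975, 423 and 312 (-3.23), CCNB1, the cyclin of mitotic entry, 3327, 388 and 301 (-3.10), and RRM2, which supplies deoxynucleotides, 2962, 353 and 305 (-3.07). Sham was the highest of the arrays in each.

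Subunits of the same complexes differed in size of ratio. Of the MCM helicase, MCM2 read 879, 211 and 155 (-2.06) and MCM3 747, 187 and 166 (-1.997), and MCM5 was at least 5.34-fold lower with the non-operated lung at the floor. PCNA, the sliding clamp, was at -1.33, while RPA1, the large subunit of the single-strand binding protein, was at -0.14 and its partner RPA2 at -2.08. Of the origin recognition complex, ORC6 was at -1.71 and ORC4 at -0.38. RPA1 and ORC4 were thus within 2-fold, and RPA2 and ORC6 were not. The median ratio of repair and chromatin assembly genes was -1.17, and 12 of 21 were lower by 2-fold or more, such as the histone methyltransferase EZH2 at -2.38 and the histone variant H2AFZ at -1.29. The damage kinase ATM was at 0.027. Of genes dimmer in both lungs than in sham outside these lists, RRM2B, the ribonucleotide reductase subunit of resting cells, read 1938, 256 and 240.3 (-2.92), and HPSE, heparanase, was at -3.04, with probe sets from -3.04 to -0.75.

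Housekeeping complexes were slightly below sham. The median ratio of the 57 counted ribosomal protein genes was -0.25, and 54 were below 0, but 0 were 2-fold higher and 0 2-fold lower. For the 35 proteasome genes it was -0.28, and 30 were below 0 and likewise 0 beyond 2-fold. Complex I of the respiratory chain stood at -0.41, where 31 of 32 genes were below 0, and ATP synthase at -0.52, where 13 of 15 were. These shifts compare with -0.10 over all genes and with -0.33 over 13 genes often used as references. Among the references ACTB was at 0.077, B2M at 0.15, GAPDH at -0.48, GUSB at -1.07 and HPRT1 at -1.36, so ratios to a single reference gene would differ by more than 2-fold.

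Heat shock and chaperone genes had 7 of 33 above sham by 2-fold or more and 2 below, against 8.96% and 8.55% of all genes. Their median ratio was -0.0043, whose sign turned when ratios were centred. CRYAB, a small heat shock protein, read 204, 1032 and 794 (2.34), HSPA6, an inducible HSP70, 203, 527 and 463 (1.37), and BAG3, a partner of HSP70, 1174, 2808 and 2706 (1.26). These were lowest in sham. The genes below by 2-fold or more were CCT7, a subunit of the TRiC chaperonin that folds actin and tubulin, at -1.002, and FKBP4, a co-chaperone of steroid receptors, at -1.10. The other TRiC subunits TCP1, CCT4 and CCT8 were within 2-fold, at -0.96, -0.78 and -0.41. In the endoplasmic reticulum HSPA5, the main chaperone there, was at -0.24, PDIA6, a disulfide isomerase, at -1.03 and DDIT3, the stress factor CHOP, at 0.58, and the list's median was -0.24.

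Several genes with extreme ratios are in no list described above. PHLDA2, an imprinted gene of growth restraint, read 286, 2219.9 and 1611 (2.95), TACC1, a centrosomal protein, 410.2, 3084 and 2695 (2.91), and ENPP1, which makes pyrophosphate, 538, 3659 and 3641 (2.77). SHROOM2, which shapes cells through actin, read 201, 1429 and 1769 (2.83). The sham array was lowest for all 4. SERPINI1, a protease inhibitor known from nerve cells, read 1985, 217 and 162 (-3.20), and HMCES, which protects abasic DNA, 2108, 284 and 325 (-2.89; -0.99 as the mean of its probe sets). ADAMDEC1, a protease of macrophages and dendritic cells, read 1139.5, 22.5 and 46.2 and was at least 7.18-fold lower. C3H2orf40 read 4995, 137 and 129 and was at least 31.5-fold lower. These 4 were highest in sham.

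Among P450 and flavin monooxygenase genes 5 of 13 were above sham by 2-fold or more and 1 below, and the median ratio was 0.40. For conjugating and carbonyl enzymes 7 of 24 were above and 0 below (median 0.32). Sterol genes had 3 of 20 above (median 0.27) and fatty acid genes 4 of 30 (median 0.12), both with 0 below. Among all genes 8.96% were that far above sham and 8.55% that far below. FMO1, a flavin monooxygenase, read 946, 10890.4 and 9359 (3.52), POR, which feeds electrons to P450 enzymes, 215, 898 and 799 (2.06), and CES1, a carboxylesterase, 454, 2001 and 1946 (2.14). CYP7A1, an enzyme of bile acid synthesis known from liver, read 13.4, 1969.9 and 2730.3 and was at least 12.3-fold higher. Sham was the lowest array for all 4. CYP3A29, a drug-oxidising P450, read 415, 38.7 and 49.2 and was at least 2.61-fold lower. SULT1E1, which sulfates estrogen, was at least 8.94-fold higher, and AKR1CL1 was at 2.97 with probe sets from 0.27 to 2.97. Of lipid genes PNPLA2, the lipase of fat droplets, was at 2.17 and ABCA1, the cholesterol exporter, at 1.89, while HMGCS1, of cholesterol synthesis, was at -0.92.

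The genes that set the lungs apart were few, and since they were chosen for that difference it is given as a description. ADGRG1, an adhesion receptor, read 196, 602 and 206, a difference between lungs of 1.55, and FGF13, an intracellular regulator of sodium channels, 505, 1594 and 687 (1.21). CYP1A1, a P450 induced by the aryl hydrocarbon receptor and by flow, read 49.6, 467 and 199.7 (1.23). In these 3 the non-operated lung was the highest array. TIMP1, a metalloproteinase inhibitor, read 1152, 1319 and 520.0 (1.34) and CHI3L1 was higher by 1.05: for both, the operated lung was the lowest array. SFTPB, a surfactant protein, read 739, 795 and 1734 (-1.13), COL5A3, a fibrillar collagen chain, 185, 184 and 392 (-1.09), and NCOA7, an oxidation resistance gene, 250.4, 158 and 371 (-1.23). For these the operated lung was the highest. With 12 of 4944 genes (0.243%) beyond 2-fold, and 1 array a side, no spread is at hand to set them against other than the 0.41 between probe sets of a gene, read against sham.

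**Figure D4:**
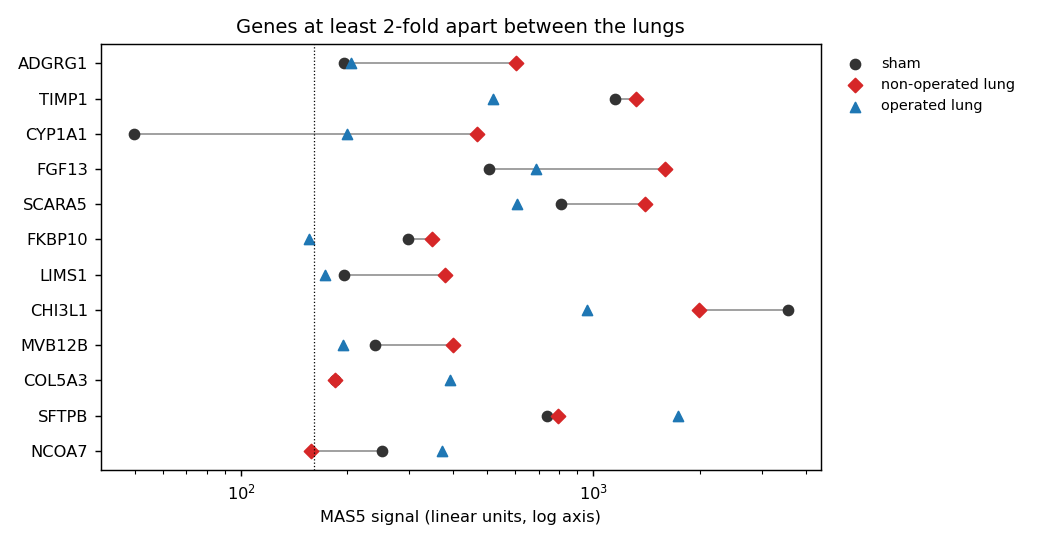
Signals of the 12 genes at least 2-fold apart between the lungs, in linear MAS5 units on a log axis, with a mark for each array and a line joining sham to the non-operated lung; the dotted line is the floor of the sham array, and values below it are drawn as measured. ADGRG1 and FGF13 are high in the non-operated lung alone, and SFTPB and COL5A3 in the operated lung alone.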

How the data were processed

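Lung RNA of 3 minipig tissues, 1 array each, was labelled with biotin and read on an Affymetrix porcine array. The deposited values are log2 signals, as the values show, and come from MAS5 per the submitters' processing notes; its version, scaling target and detection calls were not given in the sources used here. MAS5 scales each array on its own, so a difference in RNA composition can shift all ratios. Means trimmed by 2% at each end were 495.1, 495.7 and 495.9 for sham, non-operated and operated arrays, so no scaling was added. The number of arrays limits the precision.

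Of 23999 probe sets 64 controls were left out. GEO's platform annotation gave 1 gene to 10069 probe sets, several to 198 and none to 13668, and 9961 matched the RefSeq table of Sscrofa11.1, with 0 symbols updated. The brightest probe set of a gene, by mean log2 signal on all 3 arrays, stood for it. Values were floored at each array's median, and log2 differences of at least 1 (2-fold) were counted; no test was possible. The lowest value just inside the floor rule lay 0.000154 above it and the highest just outside at -5e-05 from it on the log2 scale. Unused value columns numbered 0.

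The members and 78 gene lists were chosen with earlier results of these data known, and several lists share members. Named genes had all counted probe sets on the same side of 0 and were the 15 highest and 15 lowest ratios above the floor on both arrays with a value at least 4 times the floor, the 8 largest lower bounds each way, up to 6 members beyond 2-fold each way per list, members that define a list, and the 10 highest and 10 lowest ratios between the lungs. Other list members were chosen after their values were seen, to show the range of a list; of these NR3C1, NR2F2, TGFB1, CTNNB1, FN1, ACTB and B2M, all within 2-fold, had probe sets on both sides of 0. Alternatives for scaling, floor, probe set, pseudocount and fold are in the closing section. A planned search of promoters for motifs was not run, as no sequences were used here. Scripts were tested on simulated data and ran in Python 3.11.15 with numpy 2.4.6, pandas 2.3.3 and matplotlib 3.10.9.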

Additional observations from a re-analysis of the deposited data

Results flagged for a closer look

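For 7 genes the non-operated and the operated lung lay on opposite sides of sham while being at least 2-fold apart, given here as non-operated minus operated on the log2 scale. The difference was not tested, since each lung is 1 array. TIMP1 (1.34), SCARA5, a scavenger receptor that takes up ferritin (1.21), FKBP10, a collagen chaperone (1.13), LIMS1, an adaptor at integrin adhesions (1.13), and MVB12B, of the endosomal sorting complex (1.04), were above sham in the non-operated lung and below it in the operated lung. NCOA7 (-1.23) and COL5A3 (-1.09) were the reverse. Several of these signals lie near the floor: NCOA7 read 250.4, 158 and 371, FKBP10 298, 347 and 156, LIMS1 197, 378 and 173 and MVB12B 240.0, 399 and 194. For 5 of the 7 genes the difference from sham in one of the lungs was smaller than the SD of 0.41 between probe sets of a gene. In the non-operated lung this held for TIMP1 (0.20), FKBP10 (0.22) and COL5A3 (-0.0053), and in the operated lung for LIMS1 (-0.18) and MVB12B (-0.30).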

How the results depend on the processing

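No paired analysis was possible because each group holds 1 array and no replicate can be left out. Of 500 list medians recomputed for 64 lists under 8 alternatives, 481 moved by less than 0.41 (the SD between probe sets of a gene), and 19 moved by more. That SD is for single genes, so it is a wide limit for a median over several genes. Within it, the alveolar type 2 median went from 0.51 to 0.15 with the mean of all probe sets. The median of TNF family and NF-kB genes went from 0.41 to 0.056 with a floor at the 25th percentile. Scaling turned the sign of the medians of chaperone and apoptosis genes, which lie near 0. Of 2108 ratios of 278 named genes 1887 moved by less than 0.41, 219 by more and 2 turned sign. These were ADGRG1 and MS4A2, each at -0.017 with a floor at the 75th percentile. Their sham signals of 196 and 173 were raised to that floor, so this sign was set by the floor and not by the measured signals. The counts of higher and lower genes were 245 and 194 with that floor, 814 and 848 with no floor, 896 and 1093 at 1.5-fold and 82 and 71 at 4-fold. Centring the ratios on their median gave 538 higher and 349 lower, so that 60.7% of calls were higher instead of 51.2%, and quantile normalization gave 468 and 430. With the floor at the 75th percentile the medians were 1.55 for flow-responsive genes, 0.39 for capillary and arterial genes, -1.44 for B cells, -2.45 for follicle genes, 0.083 for Toll-like receptors, 0.80 for leukocyte adhesion, -0.95 for DNA replication and -1.24 for mitosis. With no floor they were 1.37 for flow-responsive genes, 0.94 for capillary and arterial genes, 0.11 for Toll-like receptors and 0.19 for acute phase proteins, and a floor at the 25th percentile gave 0.94 for capillary and arterial genes and 0.11 for Toll-like receptors. Over genes above the floor on both arrays the medians were 1.37 for flow-responsive genes, -3.06 for follicle genes, 1.71 for neutrophil genes and -0.69 for nitric oxide genes (0.093 otherwise, so of the other sign), and the mean of all probe sets gave 1.71 for neutrophil genes. A different floor changes which members are counted, and the cause of the other moves was not tested. Under 500 signal units 8.57% of 1517 genes were beyond 2-fold, against 21.6% of 2275 genes between 500 and 2000 and 20.7% of 1321 genes above, so the floor limits what dim genes can show.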

Other observations

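Of genes of prostaglandin and leukotriene synthesis, PTGS2 alone was described above. In the non-operated lung 5 of 12 counted genes were above sham by 2-fold or more and 1 below. PTGS1, the constitutive cyclooxygenase, read 335, 1193 and 1029 (1.83) in sham, non-operated and operated lung, ALOX5AP, which presents arachidonic acid to 5-lipoxygenase, 286, 839 and 792 (1.55), and PLA2G1B, a secreted phospholipase, 198, 1386 and 1386 (2.81). PLA2G7, which breaks down platelet-activating factor, was at -1.31. In leukocyte adhesion ICAM1 was at 1.48 and VCAM1, the ligand for lymphocyte and monocyte integrins, at -1.67, reading 7706, 2422 and 2482. Solute carriers for amino acids, peptides and sugars had 4 of 11 counted members at least 2-fold lower and 1 at least 2-fold higher. Their median ratio was -0.21, and 0.087 over members above the floor on both arrays. Among the lower members SLC15A2, a peptide transporter, read 1813, 217 and 236 (-3.06).

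Probe sets with no gene or several genes were not part of the comparison. Of 13866 such probe sets 6636 were above the floor on sham or the non-operated array, of which 693 were 2-fold or more above sham and 526 below (18.4%), with ratios from -4.98 to 6.08 on the log2 scale. Between the lungs 27 of 6348 (0.425%) were at least 2-fold apart. The transcripts with the most extreme values among them are unnamed here.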
